A study of Mus musculus with 16 samples.

Results

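The genes described here encode integrin subunits and laminin chains. Members were all gene probes of the array whose gene name is that of an integrin alpha subunit, an integrin beta subunit or a laminin alpha, beta or gamma chain. This rule took 78 of 41174 gene probes, which stand for 35 genes, 25 of integrins and 10 of laminins. Of these probes 70 passed the filter on dim signals, and all 35 genes were tested. A probe for the laminin chain Lamb1 carries an older gene name that the rule does not take, so Lamb1 is given as a gene beside the members.

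The levels come from 16 single-colour Agilent arrays, each with RNA of a culture labelled as a line of mouse pluripotent stem cells. From non-obese diabetic (NOD) mice came EpiSC-like ES line 1, on 4 arrays at passages 5, 7, 9 and 10, EpiSC-like iPS line 6, on 2 arrays at passages 7 and 12, and ES cells on 3 arrays. From non-NOD mice came epiblast stem cells (EpiSC) on 2 arrays at passages 12 and 20, and cells called EpiSC iPS on 2 arrays. The 129 strain gave ES cells at passage 8, of which 2 arrays have the label mESM and 1 has epiESM, terms whose meaning is not given in the sources used here. The titles of NOD ES replicates 1, 2 and 3 carry the codes 4K, 43 KP/CH and 85 KP. Those of EpiSC iPS replicates 1 and 2 carry 3M and 1K. What these codes mean is not given either, so arrays of 1 group may differ in line or treatment. Naive embryonic stem (ES) cells resemble the inner cell mass, primed EpiSC resemble the epiblast after implantation, and induced pluripotent stem (iPS) cells are made by reprogramming. Each EpiSC-like group is 1 line taken at several passages, and the mESM pair has a single source label. P-values thus measure a spread between arrays, pooled over all groups, that may be technical. Before RNA was taken, per the labels' protocols, embryonic fibroblast feeders were removed from ES cells by preplating on gelatin and EpiSC and EpiSC-like colonies were separated by hand, so state and separation method cannot be told apart.

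Laminins are trimers of an alpha, a beta and a gamma chain that polymerise into the basement membrane, the sheet of matrix on which the epiblast becomes an epithelium. Integrins are alpha-beta heterodimers that hold cells to this matrix and pass signals inward. Alpha 6 beta 1 is the main laminin receptor of mouse ES cells, and laminin-111, made of the chains of Lama1, Lamb1 and Lamc1, is the first laminin of the embryo. Other integrins bind fibronectin and vitronectin through the RGD motif, bind collagens, or serve adhesion of leukocytes.

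Levels below are log2 of the processed spot signal minus the 75th percentile of the array, so a level of 0 equals that percentile. They are compared for a gene across arrays and never between genes, because probes differ in brightness. Differences are in log2 units with their standard errors, and "rose" and "fell" are used where limma's Benjamini-Hochberg adjusted p over 23191 genes was under 0.05. NOD ES replicate 1 had the lowest share of spots above background (26.3%) and EpiSC-like ES passage 10 the highest (88.5%). Of 10 naive ES markers, 8 fell in NOD EpiSC-like cells against NOD ES cells and 8 fell in EpiSC against mESM cells. Of 10 primed epiblast markers, 6 rose and 3 fell in the first comparison, and 7 rose and 1 fell in the second. Their mean level was 0.48 to 0.75 in EpiSC-like ES line 1 and 2.15 and 2.20 in EpiSC, but -1.26 and -1.07 in EpiSC-like iPS line 6, within the range of NOD ES cells (-1.42 to -0.61). Of 6 genes of the pluripotency core, 6 fell in NOD EpiSC-like cells and 3 fell in EpiSC. Their mean level was lowest in EpiSC-like iPS line 6 (-1.85 and -1.66, against -1.02 to -0.41 in EpiSC-like ES line 1 and 1.47 to 3.27 in NOD ES cells). Pou5f1, the gene of OCT4, was at -4.42 and -3.40 in the iPS line and at 2.22 to 4.41 in NOD ES cells. The markers of the iPS line thus go against its name, and results that rest on it are also given for EpiSC-like ES line 1 alone. In 2 more arrays the values go against the labels. For each pair of arrays the SD of the differences was taken over the probes well above background on both, a set that varies by pair. This SD was 0.387 and 0.397 between EpiSC iPS replicate 2 and NOD ES replicates 2 and 3, but 0.963 between the EpiSC iPS arrays. It was 0.697 between NOD ES replicate 1 and EpiSC iPS replicate 1, and 1.13 and 1.15 between NOD ES replicate 1 and its own group. NOD ES replicate 1 and EpiSC iPS replicates 1 and 2 shared slide 6, and 26.3%, 51.2% and 40.5% of their spots were above background. NOD ES replicates 2 and 3 were on slide 4. The part of slide and of dim signal in these distances was not tested. Results that rest on NOD ES replicate 1 and EpiSC iPS replicate 2 are given with and without both, except counts of calls where 1 EpiSC iPS array is left. Standard errors pool the spread of all groups, so these arrays also widen those of comparisons that leave out their groups. For such comparisons only counts of calls are given without them, in the last section.

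In the NOD lines, 12 of the 35 genes rose and 2 fell from ES to EpiSC-like cells, where 38.7% of all genes were called, 16.7% higher and 22.0% lower. The median difference was 0.29 over the members and -0.27 over all genes. In the non-NOD lines, 6 members rose and 5 fell from mESM to EpiSC, where 24.6% of all genes were called, 11.9% higher and 12.7% lower. The chains and subunits below are described in these comparisons first, by role. These comparisons share no arrays. For EpiSC-like ES line 1 alone against NOD ES cells, an alternative chosen after seeing the data, 11 members rose and 5 fell (42.3% of all genes called). The falls include Itga1 by its brightest probe, while another probe of that gene went the other way. Of the 14 calls with both lines, those of Itga7 (1.14, adjusted p = 0.0902), Itgb2 (0.46, adjusted p = 0.134) and Itgb5 (0.63, adjusted p = 0.224) were lost. Lama1 rose by 2.28 ± 0.21 and Itgb7 fell by 5.02 (SE 0.47) in that fit. The arrays of the groups did not overlap for 10 of 35 members in NOD lines (28.8% of all genes) and for 34 of 35 in non-NOD lines (84.2% of all genes, with 2 arrays on each side).

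**Figure D1:**
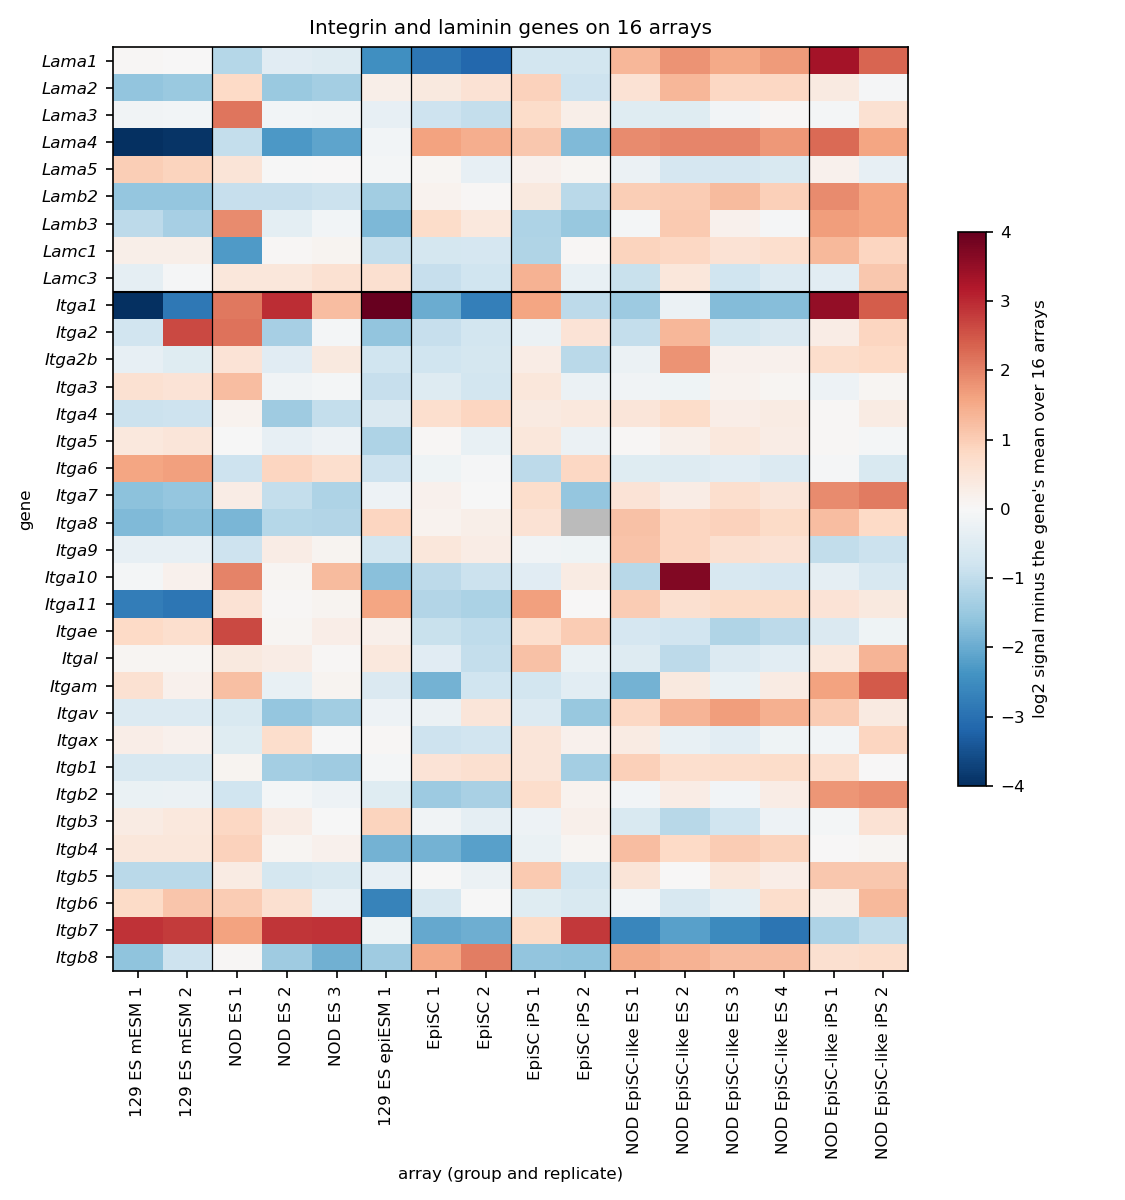
Heat map of 34 genes (rows) on 16 arrays (columns, by group); colour gives the log2 level minus the gene's own mean over the arrays, from -4 (blue) to 4 (red), and grey marks a missing spot. Itgb7 is red in NOD ES and mESM cells and blue in EpiSC and EpiSC-like cells, Lama4 the reverse, and Lama1 is red in NOD EpiSC-like cells and blue in EpiSC.

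The alpha 1 chain of laminin-111 rose with the change of state in NOD lines and fell in non-NOD lines. Lama1 had levels of 2.46, 2.29, 2.65 and 2.74 in EpiSC-like ES passages 5, 7, 9 and 10, of 4.28 and 3.28 in EpiSC-like iPS passages 7 and 12, and of -0.19, 0.51 and 0.44 in NOD ES cells. It had 1.00 and 0.95 in mESM cells and -1.95 and -2.19 in EpiSC. On the 1 epiESM array of 129 ES cells, whose naive markers had a mean of 5.55, Lama1 was at -1.51, nearer to EpiSC than to mESM cells. All EpiSC-like arrays lay above all NOD ES arrays, and both EpiSC arrays lay below both mESM arrays. The difference was 2.90 ± 0.24 in NOD lines (7.48-fold, adjusted p = 4.53e-06) and -3.04 ± 0.34 in non-NOD lines (8.25-fold lower, adjusted p = 0.000106). A second probe of Lama1 gave levels of -2.33 to -1.74 in EpiSC-like ES, of -0.35 and 0.32 in EpiSC-like iPS and of -2.56 to -1.93 in NOD ES cells. It gave -5.84 and -5.61 in EpiSC and -2.20 and -2.12 in mESM cells. On the epiESM array it gave -2.41, near the mESM cells, so the place of epiESM nearer to EpiSC holds for the brightest probe alone. On that probe EpiSC-like ES line 1 overlapped with NOD ES cells and the iPS line lay above them, so the separation of the ES line rests on the brightest probe. Without both doubtful arrays the NOD difference of Lama1 was 2.68 ± 0.24.

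The partner chains of laminin-111 were higher in NOD EpiSC-like cells too. Lamb1 had levels of 3.53 to 4.04 in EpiSC-like ES and of 5.94 and 5.41 in EpiSC-like iPS cells, against 2.12, 1.44 and 1.45 in NOD ES cells, and rose by 3.08 ± 0.28 (adjusted p = 9.01e-06). In non-NOD lines Lamb1 stood at 2.79 and 2.83 in EpiSC and at 2.88 and 2.89 in mESM cells, a difference of -0.07. Lamc1, the gamma chain of most laminins, had levels of 4.85 to 5.18 in EpiSC-like ES, of 5.57 and 5.13 in EpiSC-like iPS and of 2.01, 4.32 and 4.37 in NOD ES cells. The groups did not overlap, and the low NOD ES array was replicate 1. Lamc1 rose by 1.62 ± 0.48 (adjusted p = 0.0191), and by 0.84 ± 0.14 (adjusted p = 0.000761) without both doubtful arrays. In EpiSC it stood at 3.56 and 3.59 against 4.52 and 4.52 in mESM cells, a difference of -0.94 ± 0.67 that did not pass the test (adjusted p = 0.326). The SD of Lamc1 was 0.02 in EpiSC and 0.00 in mESM cells, but 1.35 in NOD ES and 0.90 in EpiSC iPS cells. That standard error pools them all.

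Lama4 and Lamb2 rose in both comparisons. Lama4, the alpha chain of endothelial and mesenchymal laminins, had levels of 1.40 to 1.62 in EpiSC-like ES, of 1.92 and 1.25 in EpiSC-like iPS, and of -1.30, -2.64 and -2.46 in NOD ES cells. It had 1.27 and 1.11 in EpiSC and -4.70 and -4.27 in mESM cells, with no overlap in either comparison. Lama4 rose by 3.70 ± 0.52 in NOD lines (13.0-fold, adjusted p = 0.000169) and by 5.67 ± 0.72 in non-NOD lines (51.1-fold, adjusted p = 0.000253). Lamb2, the beta chain that replaces Lamb1 in mature basement membranes, had levels of 3.07 to 3.38 in EpiSC-like ES and of 4.00 and 3.70 in EpiSC-like iPS against 1.18 to 1.26 in NOD ES cells. It had 2.25 and 2.15 in EpiSC and 0.57 on both mESM arrays. Lamb2 rose by 2.30 ± 0.26 (adjusted p = 3.86e-05) and by 1.63 ± 0.36 (adjusted p = 0.00741).

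Lama5, the alpha chain of the laminin-511 that supports ES cell self-renewal, was bright in every group. Its levels were 4.07 and 3.97 in mESM cells and 3.15 and 2.75 in EpiSC, a fall of 1.07 (fitted difference -1.07 ± 0.28, adjusted p = 0.0156). In NOD lines the levels were 2.40 to 2.83 in EpiSC-like ES, 3.25 and 2.75 in EpiSC-like iPS and 3.60, 3.05 and 3.08 in ES cells, and the difference of -0.48 ± 0.20 did not pass the test (adjusted p = 0.0819), while for the ES line alone it was -0.71 ± 0.20 (adjusted p = 0.0166). Lama2, the alpha chain of muscle laminin, was well above background on 5 of 6 EpiSC-like arrays and on no NOD ES or mESM array. It was at least 1.32-fold higher in EpiSC-like than in NOD ES cells (adjusted p = 0.0830, and 0.0449 for the ES line alone) and at least 4.05-fold higher in EpiSC than in mESM cells (adjusted p = 0.0581), measured against the dimmest signal still above background on the dim arrays. Lama3 and Lamb3, chains of epithelial laminins, did not pass the test in either comparison. Lama3 differed by -0.63 and -0.77, Lamb3 by 0.48 and 1.77, and Lamc3 by -0.57 and -0.66. Over the 10 laminin members, 4 rose and 0 fell in NOD lines (median 0.85), and 2 rose and 2 fell in non-NOD lines (median -0.72).

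**Figure D2:**
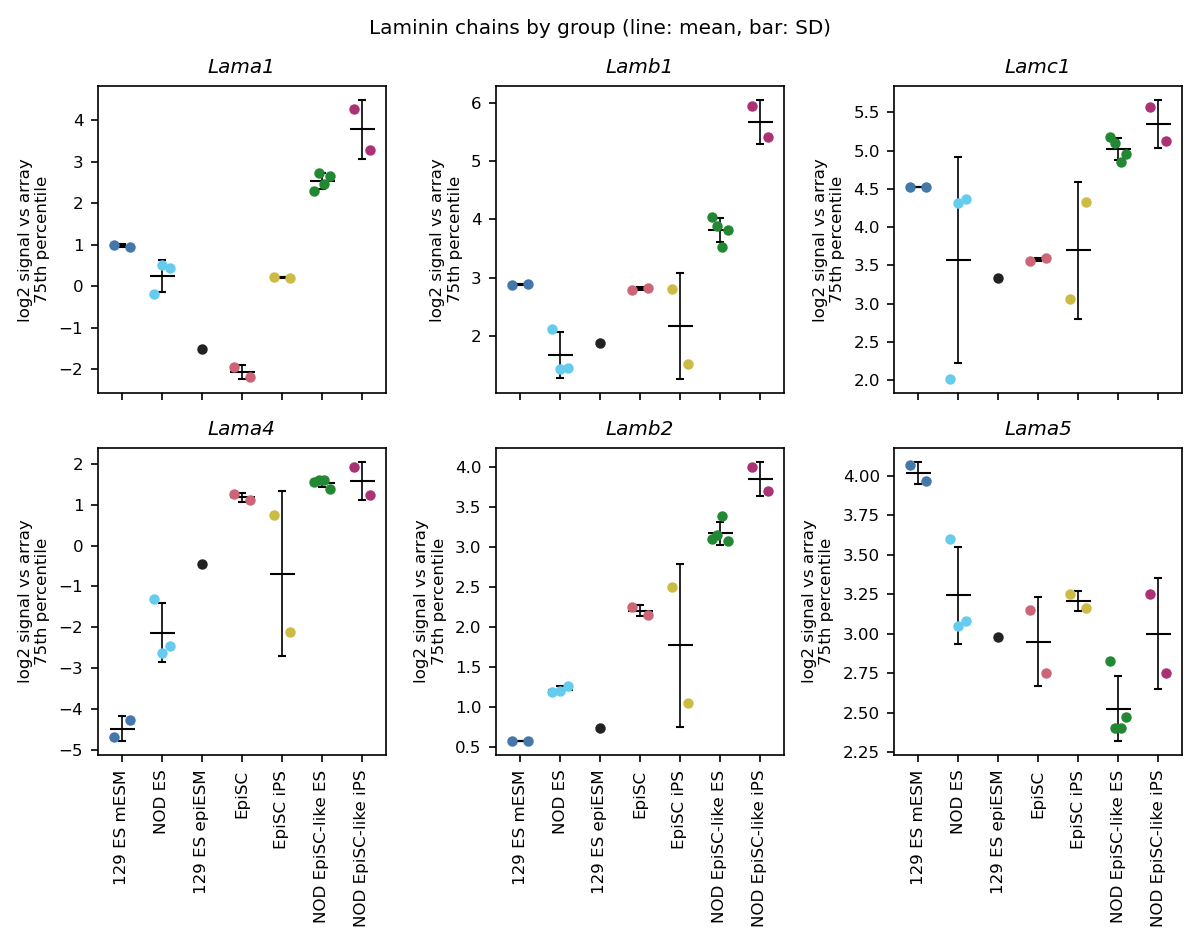
Levels of 6 laminin chains on each array (points; y axis, log2 signal minus the array's 75th percentile) in 7 groups, with mean and SD where a group has more than 1 array. Lama1 is highest in NOD EpiSC-like cells and lowest in EpiSC, and Lama4 is between 1.11 and 1.92 in the EpiSC-like and EpiSC groups but at or below -4.27 in mESM cells.

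Among the subunits of laminin-binding integrins, Itgb1 and Itga7 rose in NOD lines and Itgb4 fell in non-NOD lines. Itga6, the alpha 6 subunit, was lower on all 6 EpiSC-like arrays (1.71 to 2.29) than on NOD ES replicates 2 and 3 (3.19 and 3.00), but not than on replicate 1 (1.51). Its difference of -0.65 ± 0.43 did not pass the test (adjusted p = 0.267), and without both doubtful arrays it was -1.18 ± 0.15 (adjusted p = 0.000121). In non-NOD lines Itga6 had levels of 2.17 and 2.28 in EpiSC against 3.92 and 3.96 in mESM cells, with no overlap, and the difference of -1.71 ± 0.59 had an adjusted p of 0.0568. The SD of Itga6 was 0.08 in EpiSC and 0.03 in mESM cells, against 0.92 in NOD ES and 1.32 in EpiSC iPS cells. Its partner Itgb1, shared by most of the matrix receptors, had levels of 2.61 to 2.87 in EpiSC-like ES, of 2.61 and 1.94 in EpiSC-like iPS, and of 2.03, 0.58 and 0.51 in NOD ES cells. The highest NOD ES array, replicate 1, lay above the lowest EpiSC-like array. Itgb1 rose by 1.45 ± 0.42 (adjusted p = 0.0165) and by 1.94 ± 0.17 without both doubtful arrays, and stood at 2.47 and 2.56 in EpiSC against 1.29 and 1.28 in mESM cells (1.23 ± 0.58, adjusted p = 0.148). Its SD was 0.06 in EpiSC and 0.01 in mESM cells, against 0.86 in NOD ES and 1.29 in EpiSC iPS cells.

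Itgb4, which pairs with alpha 6 in hemidesmosomes, fell in non-NOD lines. It had levels of -0.77 and -1.04 in EpiSC against 1.57 and 1.58 in mESM cells, which did not overlap, and fell by 2.48 on the log2 scale (SE 0.29, adjusted p = 0.000142). In NOD lines it had 1.93 to 2.36 in EpiSC-like ES, 1.15 and 1.21 in EpiSC-like iPS and 2.04, 1.21 and 1.30 in ES cells, a difference of 0.13 ± 0.21 (adjusted p = 0.668) that was 0.39 ± 0.13 (adjusted p = 0.0367) without both doubtful arrays. Itga7, the laminin receptor subunit of muscle, rose by 1.87 ± 0.45 in NOD lines (adjusted p = 0.00586), from -0.17, -1.42 and -1.72 in ES cells to between -0.16 and 0.19 in EpiSC-like ES and 1.41 and 1.61 in EpiSC-like iPS cells. In EpiSC it stood at -0.29 and -0.48 against -2.10 and -2.03 in mESM cells (1.68 ± 0.62, adjusted p = 0.0722). Itga3, a receptor subunit for laminin-511, differed by -0.39 ± 0.30 in NOD lines and by -1.22 ± 0.42 in non-NOD lines (adjusted p = 0.347 and 0.0541). Of these 5 subunits, 2 rose and 0 fell in NOD lines, and 0 rose and 1 fell in non-NOD lines.

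Among receptors for RGD ligands, the alpha 8 and beta 8 subunits rose in both comparisons and the alpha v subunit rose in NOD lines. Itgav, the vitronectin receptor subunit, had levels of 1.23 to 2.10 in EpiSC-like ES and of 1.42 and 0.77 in EpiSC-like iPS against -0.20, -1.12 and -0.97 in NOD ES cells. No array overlapped, and Itgav rose by 2.18 ± 0.32 (adjusted p = 0.000217). In EpiSC it had 0.18 and 0.91 against -0.14 on both mESM arrays (0.68 ± 0.44, adjusted p = 0.281). Itgb8, a partner of alpha v that activates latent TGF-beta, had levels of -1.43 to -1.14 in EpiSC-like ES and of -2.02 and -1.97 in EpiSC-like iPS against -2.62, -4.07 and -4.57 in NOD ES cells. In NOD ES cells Itgb8 was well above background on 1 of 3 arrays. It had -1.11 and -0.63 in EpiSC against -4.28 and -3.48 in mESM cells, again with no overlap, and rose by 2.10 ± 0.37 (adjusted p = 0.000755) and by 3.01 ± 0.51 (adjusted p = 0.00145). Itga8, the nephronectin receptor subunit, had levels of 0.21 to 0.60 in EpiSC-like ES and of 0.69 and 0.25 in EpiSC-like iPS against -2.38, -1.69 and -1.73 in NOD ES cells. In EpiSC it had -0.42 and -0.33 against -2.32 and -2.23 in mESM cells, and it rose by 2.35 ± 0.20 (adjusted p = 1.07e-05) and by 1.90 ± 0.28 (adjusted p = 0.000944).

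Itgb5, another partner of alpha v, was bright on every array (3.49 to 5.67) and rose by 1.02 ± 0.36 in NOD lines (adjusted p = 0.0440), against 0.96 ± 0.50 in non-NOD lines (adjusted p = 0.190). Itga5, the fibronectin receptor subunit, stayed between -0.36 and 0.44 on all arrays except epiESM (-1.28), with differences of 0.29 ± 0.19 and -0.57 ± 0.26 (adjusted p = 0.256 and 0.139). The platelet subunits Itga2b and Itgb3 differed by 0.46 and -0.58 in NOD lines and by -0.34 and -0.63 in non-NOD lines, without a call. A second probe of Itgb3, well above background on all 16 arrays, went the other way in non-NOD lines. It was at 0.68 and 0.56 in EpiSC against -0.31 and -0.34 in mESM cells. In NOD lines it was at 0.77 to 1.20 in EpiSC-like ES, 2.62 and 2.56 in EpiSC-like iPS and 2.44, 0.53 and 0.59 in ES cells. Itgb6, an epithelial partner of alpha v, differed by -0.13 and -1.26 by its brightest probe, also without a call. Another probe of Itgb6 was at -3.11 to -1.32 in EpiSC-like cells and at -2.52, -6.66 and -5.41 in NOD ES replicates 1, 2 and 3. It was well above background on every EpiSC-like array and on no NOD ES array. The remaining probe, at -4.02 to -1.77 in EpiSC-like cells, was at -2.35, -6.46 and -4.37 in NOD ES cells. It too was well above background on no NOD ES array. No direction is given for Itgb6 in NOD lines.

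The start regions of 22 of the 35 genes were listed in the RefSeq table of build GRCm38.p6, and the 250 bases before the start are printed for members with an entry that were called in both state comparisons in 1 direction, 4 higher and 1 lower in EpiSC-like cells and EpiSC. They are Itga4 (chr2:79255176-79255425, plus strand), Itga8 (chr2:12301945-12302194, minus strand), Itgb8 (chr12:119238277-119238526, minus strand), Lamb2 (chr9:108479612-108479861, plus strand) and Itgb7 (chr15:102231936-102232185, minus strand). Each lies directly upstream of the first exon and is given 5′ to 3′ on the strand of its gene, with matches to the E-box CANNTG in capitals.
Itga4: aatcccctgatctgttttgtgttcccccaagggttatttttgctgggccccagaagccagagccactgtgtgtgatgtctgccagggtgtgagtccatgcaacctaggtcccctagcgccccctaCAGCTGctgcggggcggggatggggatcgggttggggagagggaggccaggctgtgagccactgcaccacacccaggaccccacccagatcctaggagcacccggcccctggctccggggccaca
Itga8: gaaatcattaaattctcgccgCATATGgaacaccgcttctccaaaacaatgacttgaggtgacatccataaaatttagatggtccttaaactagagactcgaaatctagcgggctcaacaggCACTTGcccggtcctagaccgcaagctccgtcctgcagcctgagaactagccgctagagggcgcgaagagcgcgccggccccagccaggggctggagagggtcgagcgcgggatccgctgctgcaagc
Itgb8: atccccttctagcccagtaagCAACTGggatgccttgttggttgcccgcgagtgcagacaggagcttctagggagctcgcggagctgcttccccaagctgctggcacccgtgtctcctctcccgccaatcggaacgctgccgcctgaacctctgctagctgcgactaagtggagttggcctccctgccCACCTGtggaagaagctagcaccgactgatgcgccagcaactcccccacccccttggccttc
Lamb2: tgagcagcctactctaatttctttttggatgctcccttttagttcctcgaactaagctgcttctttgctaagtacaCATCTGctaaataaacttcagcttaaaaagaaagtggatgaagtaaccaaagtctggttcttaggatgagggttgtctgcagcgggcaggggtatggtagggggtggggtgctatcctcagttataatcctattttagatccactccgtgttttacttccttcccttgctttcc
Itgb7: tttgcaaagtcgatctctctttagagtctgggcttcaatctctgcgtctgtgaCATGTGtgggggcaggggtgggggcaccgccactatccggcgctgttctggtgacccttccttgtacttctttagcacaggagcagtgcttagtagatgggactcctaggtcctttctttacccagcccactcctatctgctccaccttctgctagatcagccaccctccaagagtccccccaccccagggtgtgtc
The E-box reads the same on both strands and is present in 66% of 27025 promoters of this length and in 17 of the 22 members. Itga8 and Itgb8 held 2 matches each, and Itga4, Lamb2 and Itgb7 held 1 each. The GC box GGGCGG, searched on both strands, is in 32.9% of all promoters and in 7 of the 22, of which Itga4, with 1 match, is printed here. The SOX core AACAAT is in 9.65% of all promoters and in 2 members, 1 of them Itga8, and overlaps no E-box there. The octamer ATGCAAAT (1.61% of all) and the TATA box TATAAA (13% of all) were in 0 of the 22. The windows of Itgb8 and Lamb2 held 62.4% and 43.6% G and C, against a median of 52% over all promoters.

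Of the 4 collagen receptor subunits, 0 were called in NOD lines and 1 rose in non-NOD lines (limma, adjusted p; also 0 at an unadjusted p under 0.05 in NOD lines). Itga11, a collagen receptor subunit of fibroblasts, was at 2.10 to 2.75 in EpiSC-like cells and at 2.30, 1.76 and 1.84 in NOD ES cells, a difference of 0.38 ± 0.30 (adjusted p = 0.357). In non-NOD lines it rose by 1.63 ± 0.42 (adjusted p = 0.0152), from -1.05 and -1.18 in mESM cells to 0.56 and 0.46 in EpiSC. Itga2 and Itga10 were well above background on 2 and 4 of the 16 arrays and Itga1, by its brightest probe, on 9, and none was called in either comparison. For the ES line alone that probe of Itga1 fell by 3.38 (SE 0.69, adjusted p = 0.00292). Another probe of Itga1 went the other way, at -1.81 to -1.53 in EpiSC-like ES against -2.23, -6.21 and -5.35 in NOD ES cells. It was well above background on no NOD ES array, and no direction is given for Itga1. Of the receptor subunits for fibronectin and VCAM-1, Itga4 rose by 1.06 ± 0.29 (adjusted p = 0.0120) and by 1.60 ± 0.40 (adjusted p = 0.0134). Its levels were -2.47 to -1.77 in EpiSC-like cells and -2.39, -3.93 and -3.46 in NOD ES cells. There replicate 1 (-2.39), which was not well above background, overlapped. In non-NOD lines Itga4 was at -1.86 and -1.67 in EpiSC against -3.39 and -3.34 in mESM cells. Itga9 differed by 0.08 and 0.69, without a call, and for the ES line alone it rose by 0.95 ± 0.26 (adjusted p = 0.0151).

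Of the subunits known from leukocytes, Itgb7 showed the largest difference of any member in NOD lines, and in the non-NOD lines it was exceeded by Lama4 alone. Its levels were 1.58, 2.82 and 2.87 in NOD ES cells and 2.86 and 2.77 in mESM cells. They were -2.95 to -2.20 in EpiSC-like ES, -1.28 and -1.03 in EpiSC-like iPS and -2.08 and -1.98 in EpiSC. Every array of these ES groups lay above every EpiSC and EpiSC-like array. Itgb7 fell by 4.30 on the log2 scale (SE 0.42, 19.7-fold, adjusted p = 1.35e-05) and by 4.85 (SE 0.58, 28.8-fold, adjusted p = 0.000179). Itgae, the alpha partner of beta 7 on intraepithelial lymphocytes, was at -3.20 to -2.16 in EpiSC-like cells against 0.65, -1.91 and -1.73 in NOD ES cells. It fell by 1.63 (SE 0.47, adjusted p = 0.0163), and by 0.81 (SE 0.17, adjusted p = 0.00321) without both doubtful arrays, while the non-NOD difference of -1.69 ± 0.65 had an adjusted p of 0.0827. Itga4, the other partner of beta 7, moved opposite to it.

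Itgb2, the common beta subunit of leukocyte integrins, rose in NOD lines, a call lost for the ES line alone, and fell in non-NOD lines. Its levels were -1.68 to -1.26 in EpiSC-like ES and 0.22 and 0.30 in EpiSC-like iPS cells against -2.37, -1.65 and -1.76 in NOD ES cells. The iPS line lay above all NOD ES arrays, and the ES line overlapped with them. They were -3.0 and -2.87 in EpiSC against -1.84 and -1.80 in mESM cells. Itgb2 rose by 1.32 ± 0.21 (adjusted p = 0.000400) and fell by 1.11 (SE 0.29, adjusted p = 0.0167). Its alpha partners Itgal, Itgam and Itgax differed by -0.11, 0.52 and 0.05 in NOD lines and by -0.78, -1.75 and -1.02 in non-NOD lines, without a call.

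**Figure D3:**
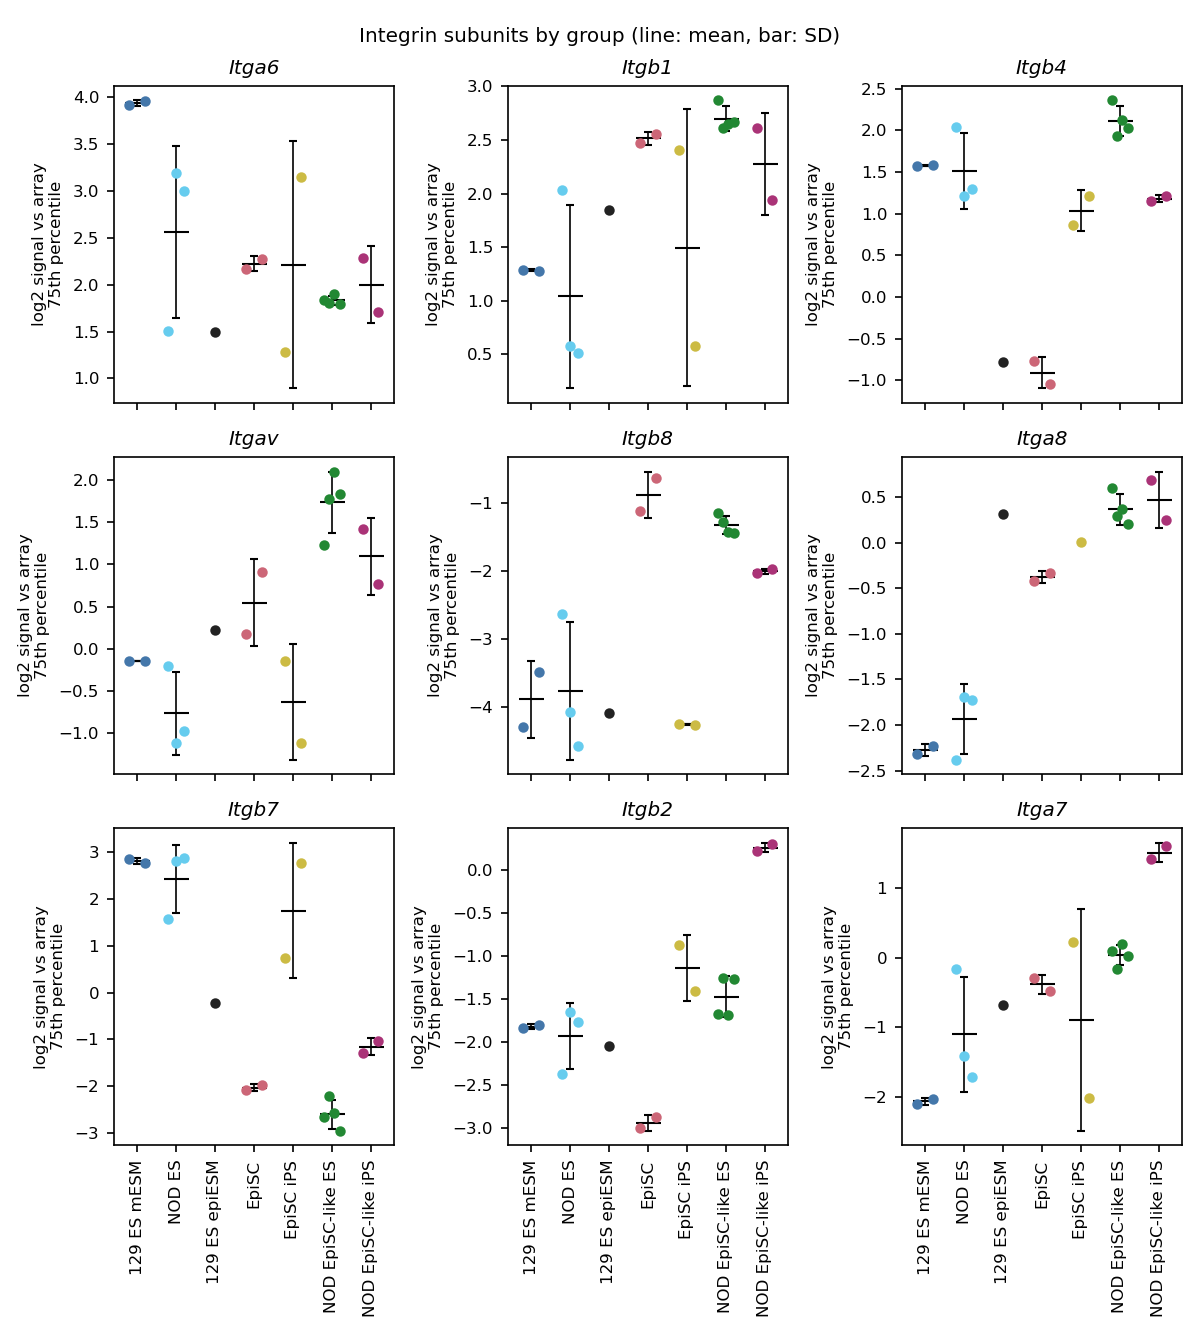
Levels of 9 integrin subunits on each array (points; y axis, log2 signal minus the array's 75th percentile) in 7 groups, with mean and SD where a group has more than 1 array. Itgb7 lies at 2.86 and 2.77 in mESM cells and at or below -1.03 in EpiSC and EpiSC-like cells, Itgb4 is at or below -0.77 in EpiSC and epiESM, and the 2 arrays of EpiSC iPS lie far apart for Itga6, Itgb1 and Itga7.

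Within slide 4, which held 1 EpiSC-like ES array and NOD ES replicates 2 and 3, 14 of the 14 called members kept their direction. These arrays are among those that made the calls and only called members were counted, so this is no separate test. With slide as a block, the NOD calls of Itga7, Itgae, Itgb1, Itgb5 and Lamc1 were lost (adjusted p = 0.0971 to 0.397), and with normexp background correction those of Itgae, Itgb1, Itgb2, Lamb2 and Lamc1 (adjusted p = 0.0616 to 0.831), while Itgb5 stood at -0.23. Averaging all probes of a gene ended the call of Itgb1 and turned Itga4 to -0.40, and the deposited table ended that of Itga4 (0.31). Leaving out 1 array ended the calls of Itga4 (0.73 without NOD ES replicate 2 and 0.96 without replicate 3), of Itgb1 (1.22 and 1.18 without these, 1.28 without EpiSC-like iPS passage 7), of Itgae and Lamc1 (-1.54 and 1.51 without EpiSC-like iPS passage 7) and of Itgb5 (11 of 15 arrays, 0.83 to 1.03). Without NOD ES replicate 1 alone, Itgae was at -0.81 and Lamc1 at 0.84. In the non-NOD lines the calls of Itga4, Itga11, Itgb2 and Lamb2 were lost with slide as a block, with normexp or with both mESM arrays averaged, that of Lama5 with the last of these and with normexp, and that of Lama4 with slide as a block (5.49 ± 1.35, adjusted p = 0.0624). Averaging all probes ended those of Itga4 (0.01) and Itga8 (0.94). Leaving out any of the 4 arrays compared ended the calls of Itga4 (1.5 to 1.70), Itga11 (1.56 to 1.69) and Itgb2 (-1.18 to -1.05), and leaving out either mESM array those of Lama5 (-1.02 and -1.12) and Lamb2 (1.63 and 1.63), as did EpiSC replicate 2 for Lama5 (-0.87) and replicate 1 for Lamb2 (1.58).

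The test of whether the state difference itself differed between NOD and non-NOD lines called 3 of 35 members, where 12.5% of all genes were called, 5.0% higher and 7.52% lower in NOD lines. All 3 were higher in NOD lines. Lama1 differed by 5.95 ± 0.42 (adjusted p = 3.73e-05), Itgb4 by 2.61 ± 0.36 (adjusted p = 0.00135) and Itgb2 by 2.43 ± 0.36 (adjusted p = 0.00193). Lamc1 differed by 2.56 ± 0.82 (adjusted p = 0.0654), and by 1.78 ± 0.22 (adjusted p = 0.000382) without both doubtful arrays. Itgb7, Itgae, Itgb1, Itgb5 and Itgb3 had estimates of 0.55, 0.05, 0.22, 0.06 and 0.05, with standard errors of 0.72, 0.80, 0.71, 0.62 and 0.44. With normexp background correction none of the 3 was called (Lama1 3.57, Itgb4 1.94 and Itgb2 1.27, adjusted p = 0.0692, 0.146 and 0.276), nor was Itgb2 with slide as a block (2.12, adjusted p = 0.0786). For EpiSC-like ES line 1 alone the estimates were 5.32 ± 0.34, 3.08 ± 0.38 and 1.57 ± 0.38 for Lama1, Itgb4 and Itgb2, all called (adjusted p = 0.000138, 0.00196 and 0.0293). Strain and line cannot be told apart here. On the 1 epiESM array of 129 ES cells Lama1 (-1.51, by its brightest probe) and Itgb4 (-0.78) lay nearer to EpiSC than to mESM cells. By the second probe of Lama1 the epiESM array (-2.41) lay near the mESM cells (-2.20 and -2.12). The part of the mESM and epiESM labels in the interaction was not tested.

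**Figure D4:**
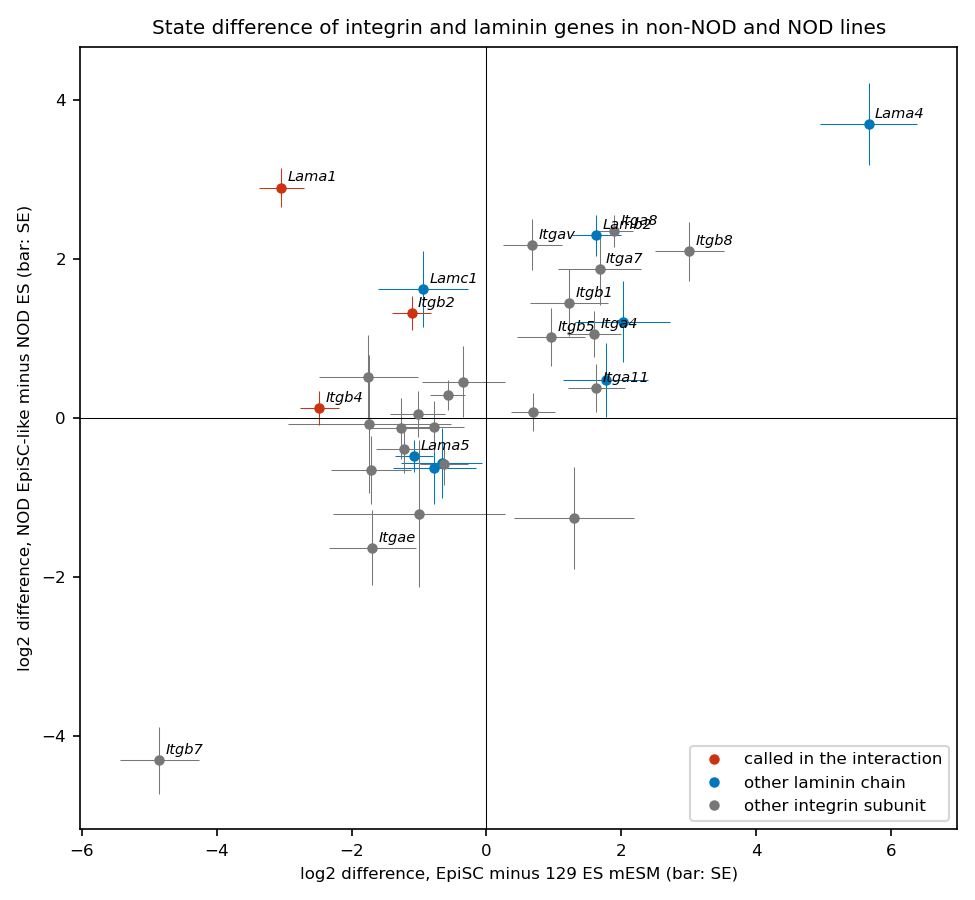
Difference of 34 genes between EpiSC or EpiSC-like cells and ES cells in log2 units, non-NOD lines on the x axis (EpiSC minus mESM) and NOD lines on the y axis (EpiSC-like minus ES), with standard errors as bars. Lama4 and Itgb7 lie at opposite corners with the same sign on both axes, while Lama1 is at -3.04 on the x axis and 2.90 on the y axis.

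NOD EpiSC-like cells were also set against the EpiSC they are named after, a comparison that shares its arrays with both state comparisons. Of the members 8 rose and 0 fell, where 16.1% of all genes were called, 7.87% higher and 8.20% lower, with a median of 0.82 over members and 0.27 over all genes. Lama1 was 37.3-fold higher (5.22 ± 0.28, adjusted p = 4.24e-06), Itgb4 5.86-fold (2.55 ± 0.24) and Itgb2 5.02-fold (2.33 ± 0.24), and Lamb2 rose by 1.31 ± 0.30. Itga11 rose by 1.84 ± 0.35, Itgam by 2.19 ± 0.61 and Itga8 by 0.80 ± 0.24, and Itga1 was at least 5.53-fold higher by its brightest probe and not called by the other 3. For EpiSC-like ES line 1 alone the calls of Itga1 (1.06), Itga8 (0.75), Itgam (1.00) and Lamb2 (0.97) were lost. Of 11 leukocyte markers 7 rose and 0 fell here (median 3.31), of 16 endoderm markers 3 rose and 1 fell, and of 10 primed epiblast markers 0 rose and 8 fell. Their part in the result was not tested. The groups did not overlap for 16 of 35 members (30.8% of all genes). Lamb1, beside the members, rose by 1.94 ± 0.33. Within slide 1 (2 EpiSC-like arrays and 1 of EpiSC) and within slide 3 (1 of each) 8 of 8 called members kept their direction, with Lama1 at 5.23 and 4.64. These arrays also helped to make the calls, so the agreement is no separate test. Leaving out either EpiSC array ended the calls of Itga1 (3.56 and 2.81), Itga8 (0.75 and 0.84), Itga11 (1.89 and 1.79), Itgam (1.64 and 2.75) and Lamb2 (1.36 and 1.26), and that of Itga8 was lost in 12 of 15 such fits. The call of Itgam was lost in 5 of the 15, also without EpiSC-like iPS passage 12 (1.99) and EpiSC-like ES passages 5 (2.18) and 9 (2.08).

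Between the NOD EpiSC-like lines, 6 members were higher in iPS line 6 and 2 were lower than in ES line 1, where 25.7% of all genes were called, 14.1% higher and 11.6% lower, and the median of all genes was 0.28. The lines did not overlap for 18 of 35 members (55.7% of all genes). The leukocyte subunits Itgb2, Itgam and Itgal rose by 1.73 ± 0.25, 2.38 ± 0.64 and 1.51 ± 0.39 (adjusted p = 0.000672, 0.0191 and 0.0152). Lama1 rose by 1.25 ± 0.29 (adjusted p = 0.00989) and Lamb1 by 1.86 ± 0.34 (adjusted p = 0.00265), while Itgb4 fell by 0.93 (SE 0.25, adjusted p = 0.0193) and Itga9 fell by 1.74 (SE 0.29, adjusted p = 0.00140). Itgb3, the beta 3 subunit, rose by 0.93 ± 0.31 (adjusted p = 0.0481). Markers of leukocytes moved with these genes: 7 of 11 rose and 0 fell, and their mean level was 0.86 and 1.03 on the iPS arrays against -1.09 to -0.85 on the ES arrays. Of 10 primed epiblast markers 0 rose and 5 fell, of 6 pluripotency core genes 0 rose and 2 fell, of 20 feeder markers 0 rose and 4 fell, and of 16 endoderm markers 2 rose and 2 fell, with Afp, alpha-fetoprotein, highest at 5.13 ± 0.89. Their part in the result was not tested. Without iPS passage 7 the difference of Lama1 was 0.75 (adjusted p = 0.105), and without iPS passage 12 those of Itgal, Itgam and Itgb3 were 1.04, 1.97 and 0.60 (adjusted p = 0.209, 0.186 and 0.406). The call of Itgb3 was lost in 9 of 15 fits with 1 array left out. Leaving out either iPS array ended the call of Itgb4 (-0.90 and -0.96). With normexp background correction none of these calls held and Lama1 was at -0.56.

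The iPS lines named after EpiSC hold the array whose values match NOD ES cells, so both arrays are given. Of the members 5 rose and 2 fell from EpiSC to EpiSC iPS, where 21.1% of all genes were called, 12.1% higher and 8.97% lower, and the median of all genes was 0.42. The groups did not overlap for 24 of 35 members (64.1% of all genes). Itgb7 had levels of 0.73 and 2.78 against -2.08 and -1.98 in EpiSC and rose by 3.79 ± 0.58 (adjusted p = 0.00100). Lama1 had 0.22 and 0.21 (2.28 ± 0.34), Itgb4 0.86 and 1.21 (1.94 ± 0.29), Itgb2 -0.87 and -1.41 (1.79 ± 0.29) and Itga11 3.37 and 1.73 (2.04 ± 0.42), and all 4 rose. Itgb8 and Lamb3 were well above background on neither EpiSC iPS array. Both fell, Itgb8 at least 2.92-fold with an adjusted p of 0.000832 and Lamb3 at least 1.52-fold with an adjusted p of 0.0484. Without both doubtful arrays 1 EpiSC iPS array is left, so no count of calls is given. Fits with 1 array left out put the difference of Itga11 between 1.22, without EpiSC iPS replicate 1, and 2.86. The call of Lamb3 was lost in 12 of 15 fits with 1 array left out, and with normexp no member was called. Against mESM cells 4 members rose, where 10.6% of all genes were called, 6.76% higher and 3.86% lower, and 22 of 35 members did not overlap (59.9% of all genes). Itga11 rose by 3.66 ± 0.42 (adjusted p = 0.000974) and Lama4 by 3.8 ± 0.72 (adjusted p = 0.00845, and 2.37 without EpiSC iPS replicate 1). Itga8 rose by 2.28 ± 0.35 (adjusted p = 0.00447) on 1 EpiSC iPS array, since the other spot was missing. Itga1 was at least 5.96-fold higher by its brightest probe (adjusted p = 0.0187) and not called by the other 3. Leaving out either mESM array ended the calls of Lama4 (3.59 and 4.01) and Itga1 (3.12 and 4.69), and that of Itga1 was also lost without EpiSC iPS replicate 1 (2.6), the one EpiSC iPS array on which its probe was well above background. Of 20 feeder markers 12 rose and 0 fell against mESM cells (median 3.31), with a mean level of 3.20 and 0.36 on EpiSC iPS replicates 1 and 2 against -1.50 and -1.48 in mESM cells, and their part in the result was not tested.

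The comparison of NOD ES with mESM cells called 3 members, all higher in NOD ES cells, where 8.92% of all genes were called, 5.86% higher and 3.06% lower. The groups did not overlap for 15 of 35 members (51.9% of all genes). Itga11 rose by 3.08 ± 0.38 (8.47-fold, adjusted p = 0.00138), from -1.05 and -1.18 to 2.30, 1.76 and 1.84. Lama4 rose by 2.35 ± 0.66 (adjusted p = 0.0490), a call that was lost in 13 of 15 fits with 1 array left out (1.93 to 2.6 over all 15). Itga1 was at least 21.2-fold higher by its brightest probe (adjusted p = 0.00273) and not called by 3 others, and without mESM replicate 1 it was not called (4.95, adjusted p = 0.0575). Feeder fibroblast markers, 9 of 20 of which rose and 0 fell, had a mean level of 0.37 to 1.77 on NOD ES arrays and of -1.50 and -1.48 on mESM arrays, and their part in the result was not tested.

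The 1 array of 129 ES cells labelled epiESM has no replicate, so its levels are given beside those of the mESM arrays with no test. Lama4 was at -0.44 (mESM -4.70 and -4.27), Itga8 at 0.31 (-2.32 and -2.23), Itga11 at 3.30 (-1.05 and -1.18) and Itga1 at 1.79 (-7.06 and -5.49). Lama1 was at -1.51 (1.00 and 0.95), Itgb4 at -0.78 (1.57 and 1.58), Itgb7 at -0.22 (2.86 and 2.77) and Itga6 at 1.5 (3.92 and 3.96). The second probe of Lama1 was at -2.41 (-2.20 and -2.12). Itgb8 (-4.08) and Lamb2 (0.73) lay close to the mESM arrays. Naive markers had a mean level of 5.55 on this array and feeder markers of 2.38.

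Other genes of the basement membrane were taken from a list, itself chosen with earlier results of these data known. Of 14 tested, 9 rose and 0 fell in NOD lines (median 1.77), and 3 rose and 2 fell in non-NOD lines (median 1.28). Vtn, encoding vitronectin, rose by 6.78 ± 0.34 and by 6.52 ± 0.48. The collagen IV chains Col4a1 and Col4a2 rose by 4.18 ± 0.53 and 3.99 ± 0.52 in NOD lines. Nid1, which links laminin to collagen IV, rose by 1.55 ± 0.29 in NOD lines and fell by 1.34 (SE 0.40) in non-NOD lines. It is a gene named after its values were seen. In the non-NOD lines Nid2 fell by 2.32 (SE 0.52) and Tnc rose by 5.54 ± 0.77. Of 6 laminin receptors outside the integrins, 3 rose and 1 fell in NOD lines and 2 rose and 2 fell in non-NOD lines: Bcam, the Lutheran receptor for laminin alpha 5, fell by 2.01 (SE 0.39) and 3.17 (SE 0.53), the sarcoglycans Sgcb and Sgce rose in both (3.07 and 3.07, and 1.45 and 2.45), and Dag1, dystroglycan, fell by 1.55 (SE 0.23) in non-NOD lines. Of 23 genes of the adhesion complex on the inner face of the membrane, 5 rose and 3 fell in NOD lines and 4 rose and 0 fell in non-NOD lines. Ilk, the integrin-linked kinase, rose in both (0.81 ± 0.21 and 1.99 ± 0.29), Parva, its binding partner, rose by 2.23 ± 0.65 in NOD lines, Ptk2, the focal adhesion kinase, fell by 1.29 (SE 0.25) there, and Zyx, zyxin, rose by 2.80 ± 0.77 in non-NOD lines. The levels of Ptk2 were -1.77 and -3.12 in EpiSC-like iPS, -0.46 to -0.11 in EpiSC-like ES and -0.24 to 0.08 in NOD ES cells. Its fall thus rests on the iPS line, and the ES line overlapped with NOD ES cells.

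Markers of other cells moved with the same groups. In bulk RNA, fewer cells of a type and less RNA per cell cannot be told apart. Of 20 feeder fibroblast markers, 16 rose and 0 fell in NOD lines (median 2.42) and 17 rose and 0 fell in non-NOD lines (median 4.17). Their mean level was 3.81 to 4.12 in EpiSC-like ES, 3.04 and 3.21 in EpiSC-like iPS, 2.82 and 2.88 in EpiSC, 0.37 to 1.77 in NOD ES and -1.50 and -1.48 in mESM cells. On every EpiSC and EpiSC-like array 20 of the 20 were well above background. Of 16 endoderm markers, 9 rose and 0 fell in NOD lines (median 2.51) and 5 rose and 0 fell in non-NOD lines (median 0.84). Foxa2 rose in both (5.30 ± 0.37 and 7.45 ± 0.51), and Gata6 rose in NOD lines (2.87 ± 0.32), as did Dab2 (3.54 ± 0.41). The endoderm mean was -1.15 to -0.61 on EpiSC-like arrays, -1.56 on both EpiSC arrays, -3.44 to -1.89 in NOD ES and -3.13 and -3.06 in mESM cells. Of 11 leukocyte markers, 6 rose and 0 fell in NOD lines (median 1.95), among them Tyrobp (5.58 ± 0.54) and Csf1r (2.55 ± 0.26), and 0 rose and 2 fell in non-NOD lines. Of 7 endothelial markers, 2 rose and 1 fell in NOD lines and 2 rose and 0 fell in non-NOD lines. The part of these cells in the differences of Lama1, Lama4, Lamb1, Lamb2, Itga8, Itgav and Itgb2 was not tested.

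**Figure D5:**
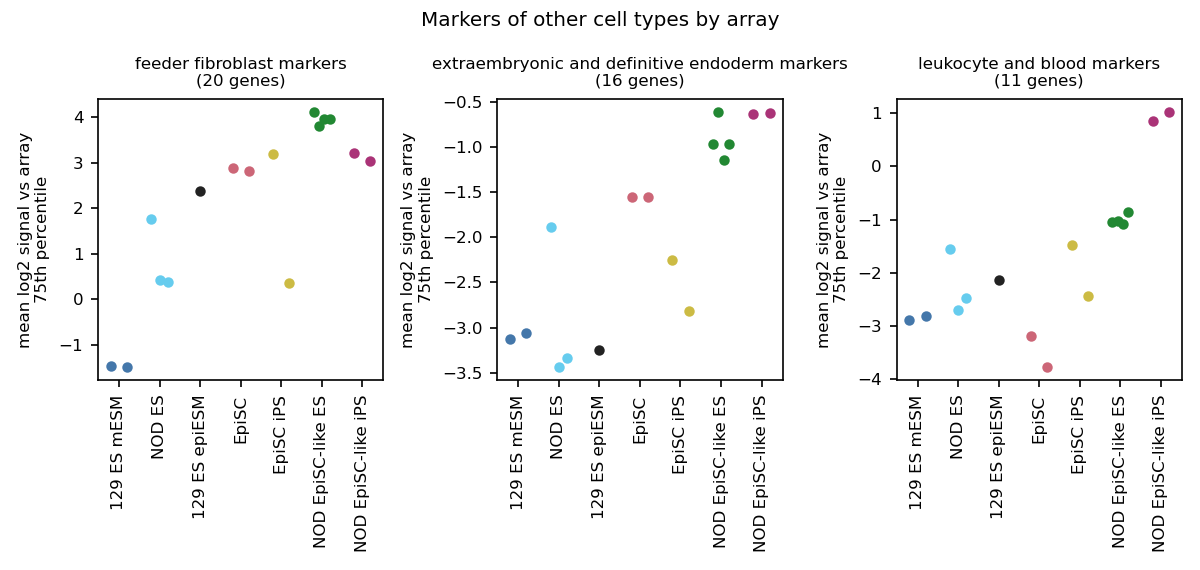
Mean log2 level of 3 marker lists on each array (points) in 7 groups. Feeder markers are lowest in mESM cells and between 2.82 and 4.12 in EpiSC and EpiSC-like cells, and leukocyte markers are highest in EpiSC-like iPS cells.

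Of the 35 genes 21 had more than 1 probe that passed the filter. At the level of probes, 21 of 70 rose and 6 fell in NOD lines, and 11 rose and 11 fell in non-NOD lines. The share called among all 34332 probes of that fit is not given, so these counts are no result about the members. In 6 of the 7 comparisons no gene had probes called in opposite directions. The exception was Itga1 between the NOD EpiSC-like lines, where probe A_52_P518922 rose by 4.24 ± 0.77 in the iPS line and probe A_51_P268944 fell by 3.05 (SE 0.95), so no direction is given for Itga1 there. In the NOD state comparison these probes differed by -1.26 ± 0.64 and 0.71 ± 0.79, and another, A_52_P459929, rose by 2.32 ± 0.66.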

How the data were processed

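RNA of 16 cultures was measured on 1-colour Agilent arrays. Per the file headers, Feature Extraction 10.1.1.1 made the processed spot intensity, background-subtracted within the array and not scaled between arrays, on a design annotated to build mm7. The authors' deposited value table holds log2 values that rank the features of each array as the mean spot signal does, with a median of 6.93 in every column. How it was normalized is not given in the sources used here. The submitters' processing notes name limma.

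Gene spots without an outlier flag were averaged by probe, as log2 intensity minus the array's 75th percentile. A probe was kept if 2 or more arrays had it well above background, and each of 23191 genes was represented by its brightest kept probe. For 3 probes an older clone name maps to Itga9 or Itgav, and since the rule does not take them they were left out of the gene values. Group means over the 16 arrays were fitted by limma 3.58.1 (R 4.3.3, eBayes), and p-values were adjusted across genes. The NOD EpiSC-like mean weights both lines equally. The fit was tested on simulated data. No array held a saturated gene spot, and the number of arrays limits precision.

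Members, lists and comparisons were chosen with earlier results of these data known. Named were, in each comparison, up to 5 members that rose and 5 that fell most, a set of main subunits and chains, and up to 4 called genes of other adhesion lists. Other members are given by value. Probes well above background on no array of a side are given as "at least" bounds, computed from the brighter group's mean and the lowest well-measured signal of each dim array. Alternatives were normexp with an offset of 50, quantile normalization, other filters, the mean over probes, the deposited table, slide as a block, subsets of groups and arrays left out. The EpiSC-like ES line alone was added after seeing the data. Promoter sequences come from RefSeq (GRCm38.p6), and array coordinates were not used here. Values of 1 member are not reported here, and it is left out of the figures but kept in the counts.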

Additional observations from a re-analysis of the deposited data

Results flagged for a closer look

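The state difference differed between NOD and non-NOD lines, by the interaction test, for Lama1 (5.95), Itgb4 (2.61) and Itgb2 (2.43, all higher in NOD lines).

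Within the 4 arrays of NOD EpiSC-like ES line 1, 3 members had 1 array far from the others by Dixon's test, which chance gives in about 1 of 20 groups. Itga10, a collagen receptor subunit, was at -0.90 at passage 10 and between -5.72 and -5.26 at the other passages. Itga2, another, was at -3.17 at passage 10 and between -5.47 and -5.09 elsewhere, and the passage 10 array had the highest share of spots above background (88.5%). Lama5 was at 2.83 at passage 7 and between 2.40 and 2.47 elsewhere.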

How the results depend on the processing

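Counts of members called moved by over 1.5 times as follows, from 11 (EpiSC against mESM), 7 (EpiSC iPS against EpiSC), 4 (EpiSC iPS against mESM), 8 (NOD EpiSC-like against EpiSC), 8 (between the NOD EpiSC-like lines), 3 (NOD ES against mESM) and 3 (interaction). Without the 2 arrays of doubtful label they were 25 for EpiSC minus mESM and 19 for NOD EpiSC-like minus EpiSC. They were then 17 between the NOD EpiSC-like lines, 11 for NOD ES minus mESM and 13 for the interaction. The EpiSC iPS comparisons are then left with 1 EpiSC iPS array, and no count is given for them. In the order first given, the counts with normexp were 6, 0, 0, 3, 0, 0 and 0. In the same order, a fit on the compared groups alone gave 30, 1, 0, 15, 14, 0 and 7. Slide as a block gave 7 for EpiSC minus mESM and 0 for NOD ES minus mESM. Averaging both mESM arrays gave 6 for EpiSC minus mESM and 2 for EpiSC iPS minus mESM, averaging probes gave 1 for EpiSC iPS minus mESM and 1 for NOD ES minus mESM, and the deposited table gave 5 for NOD ES minus mESM and 7 for the interaction. Where limma called 0, members at an unadjusted p under 0.05 numbered 7, 4, 15, 4 and 4 with normexp (EpiSC iPS against EpiSC, EpiSC iPS against mESM, the NOD lines, NOD ES against mESM, interaction), 9 and 7 with the compared groups alone (EpiSC iPS and NOD ES against mESM) and 3 with slide as a block. For EpiSC-like ES line 1 alone, an alternative chosen after seeing the data, NOD EpiSC-like against EpiSC gave 4, the interaction 4 and the NOD state comparison 16. The NOD state comparison (14) gave 13 to 15 under the alternatives that left out no array of its groups and 20 without the doubtful arrays. The counts in this section are not set beside the share of all genes called under each alternative. They show how calls depend on the processing and are no result about the members.

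Leaving out 1 array gave 10 to 17 members in the NOD state comparison, 6 to 20 in EpiSC minus mESM, 6 to 12 in EpiSC iPS minus EpiSC, 2 to 10 in EpiSC iPS minus mESM, 3 to 13 in NOD EpiSC-like minus EpiSC, 4 to 11 between the NOD lines, 1 to 4 in NOD ES minus mESM and 3 to 7 in the interaction. The highest counts in the first 2 came without NOD ES replicate 1.

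Single members turned sign as follows, and the cause was not tested. In the NOD state comparison Itga10 was 3.38 with slide as a block, Itga4 -0.40 with probes averaged and Itgb5 -0.23 with normexp. In EpiSC iPS minus EpiSC Itga10 was -5.00 and Itgam -2.02 with slide as a block, and Itga7 was 0.61 without the doubtful arrays. Itgae was -2.63 in EpiSC iPS minus mESM with slide as a block. Between the NOD lines Itga1 was -0.23 with probes averaged and Lama1 -0.56 with normexp. No paired analysis was possible because the labels give the groups no shared replicate numbers. Scaling moved the median of all genes in the NOD state comparison from -0.27 to 0.58 with normexp and to -0.03 with quantile normalization. Probes near background limit Itga1, Itga2, Itga10 and Lama2, and in NOD ES cells Itgb8. NOD ES replicate 1 was not well above background for Itgb8, Itga4, Itga7, Itga8, Itgb2, Lama1 and Lama4, so its values there are upper limits of a dim array.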
